A study of Mus musculus with 2 samples.

Results

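The transcripts of 8 genes of the NRF2 antioxidant response were measured in regenerating liver of mice with and without a miR-182-5p KO allele. The genes were taken by name from the deposited gene table, *Nqo1*, *Gclc*, *Gclm*, *Txnrd1*, *Srxn1*, *Hmox1*, *Keap1* and *Txn1*, and are 8 of its 34745 genes. All 8 had at least 10 counts over both libraries, the minimum that 13561 genes passed.

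The KO group carries the genotype miRNA-182 KO and the control group is WT, and per the study's methods the KO mice are heterozygous, with 1 allele removed. Both groups were male mice, 8 to 10 weeks old, that had 2/3 partial hepatectomy (2/3 PH, removal of 70% of the liver), and liver was taken at day 3. Each genotype is represented by 1 library of poly(A) RNA. The sources used here do not say how many animals went into a library. With 1 library per genotype, no difference below has a replicate check and no p-value is given.

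NRF2, the product of *Nfe2l2*, is a transcription factor that KEAP1 holds at a low level by passing it to a CUL3 ubiquitin ligase. When oxidants or electrophiles modify KEAP1, NRF2 accumulates, pairs with a small MAF protein and binds antioxidant response elements (AREs) near genes of glutathione synthesis, the thioredoxin system, quinone reduction and heme breakdown. In the liver this response is known for protecting hepatocytes against reactive drugs and oxygen species.

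To show what surrounds the start sites of these genes, the ARE core TGACNNNGC and the AP-1 site TGANTCA, which can lie within an ARE, were searched on both strands of RefSeq promoter windows (GRCm38.p6, 250 bases before to 50 after each start). An ARE core was in 12.4% of all 32851 windows and an AP-1 site in 7.81%. The windows of *Gclm* and *Srxn1* and 1 of the 3 windows of *Txnrd1* held an ARE core, and that of *Srxn1* also held 2 AP-1 sites. The windows of *Nqo1*, *Keap1* and *Txn1* held neither set of letters, and *Gclc* and *Hmox1* had no entry. Bases further from the start and other spellings of the ARE core were not searched. The matches are printed on the gene's strand with the matched letters in capitals.
Gclm ARE core on the other strand, 134 bases before the start, chr3:122245413-122245441 (+): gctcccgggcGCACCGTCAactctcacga
Txnrd1 ARE core on the other strand, 92 bases before the start, chr10:82859104-82859132 (+): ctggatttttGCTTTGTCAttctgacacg
Srxn1 AP-1 site, 102 bases before the start, chr2:152105412-152105438 (+): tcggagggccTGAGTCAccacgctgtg
Srxn1 AP-1 site, 45 bases before the start, chr2:152105469-152105495 (+): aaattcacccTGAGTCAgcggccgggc
Srxn1 ARE core on the other strand, 28 bases after the start, chr2:152105542-152105570 (+): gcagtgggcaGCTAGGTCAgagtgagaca

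The microRNA that the KO allele lacks is shown with its seed, bases 2 to 8, in capitals (RefSeq, GRCm38.p6), and the match to the seed, TTGCCAA, was sought in the longest annotated 3′ UTR of each gene. Of 12503 tested genes with a UTR, 12% held the match. Among the 8 genes only *Txnrd1* held it, at base 19 of a UTR of 1667 bases.
mmu-miR-182-5p, chr6:30165962-30165986 (-): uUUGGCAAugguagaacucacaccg
Txnrd1 3′ UTR match: ggatgctgTTGCCAAgactacag

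The KO library held 13247497 counts and the WT library 13163348. Reads of the 13 protein-coding mitochondrial genes made up 51.7% of the total in KO and 31.0% in WT, which left fewer counts for the other genes in KO. Counts were therefore scaled by TMM, which set the median log2 fold change of all tested genes (KO over WT) at 0.00, whereas scaling by total counts set it at -0.60. Levels below are CPM (edgeR's counts scaled to a common TMM-adjusted library size), and intervals are exact 95% intervals that cover counting error only. At this scaling 1348 genes (9.94%) were at least 2-fold lower in KO and 1283 (9.46%) at least 2-fold higher, whereas total counts gave 3605 (26.6%) and 624 (4.60%). The 7 hepatocyte markers that were found summed to 51290 CPM in KO and 51360 in WT, most of it from *Alb* and *Apoa1*. Of these 7, *Apob*, which makes the apolipoprotein of very-low-density lipoprotein, had 1517 and 17808 counts (-2.96), and *Cps1*, a urea cycle enzyme, had 6334 and 14753 (-0.63). No check of the labels on miR-182 was made, since its level was not analysed here.

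All 8 genes were lower in KO than in WT after TMM scaling, but most of the differences were small. *Nqo1* was 3.45-fold lower, *Srxn1* 1.69-fold and *Txnrd1* 1.54-fold lower, and the other members were between 1.05-fold and 1.37-fold lower. The median log2 fold change of the 8 genes was -0.35, beside 0.00 over all tested genes, of which 50% were below 0. Only *Nqo1* (12.5% of the members, beside 9.94% of all genes) was past 2-fold. The counting interval lay wholly below 0 for 7 of the 8 genes, that is 87.5%, beside 26.2% of all genes. Well-counted genes have narrow intervals, and among the 7543 genes whose mean CPM was within the members' range that share was 31.5%, their median was -0.01, and 5.18% were 2-fold lower. In bulk liver, fewer cells of a type and less RNA per cell cannot be told apart.

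**Figure D1:**
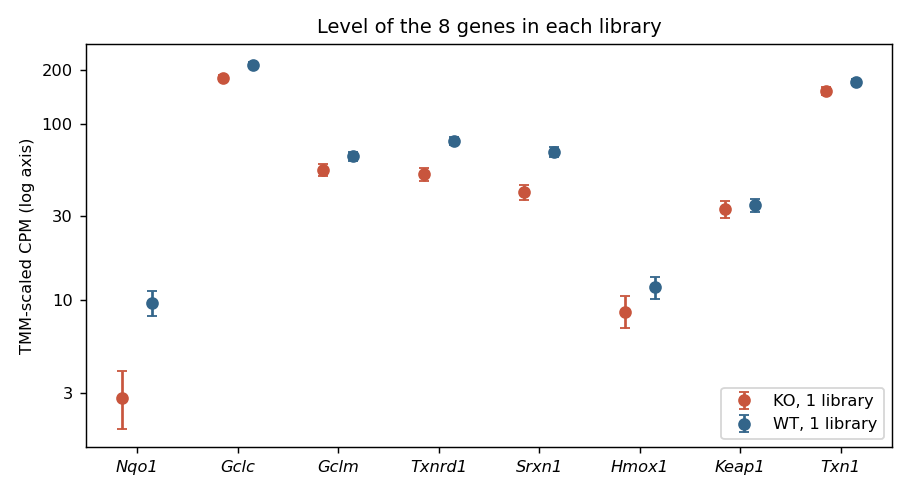
TMM-scaled CPM (log axis) of the 8 genes in the KO library (red) and the WT library (blue), with exact 95% Poisson intervals that cover counting error only. The KO point is below the WT point for every gene, from 2.79 against 9.62 for Nqo1 to 32.7 against 34.4 for Keap1. The KO and WT intervals overlap for Keap1 and for Hmox1.

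*Nqo1* encodes NAD(P)H quinone dehydrogenase 1, which reduces quinones by 2 electrons and is a widely used readout of NRF2 activity. The gene (ENSMUSG00000003849, chr8:107388225-107403206, minus strand) had 30 counts in KO and 156 in WT. These are 2.79 and 9.62 CPM and 1.46 and 7.63 FPKM as deposited (fragments per kilobase of gene, scaled by the library total). The log2 fold change was -1.77 (interval -2.40 to -1.22), and 3.93% of all tested genes were lower than that. It was the least abundant of the 8 genes per kilobase in both libraries, and the interval of its fold change overlapped that of none of the others.

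*Gclc* and *Gclm* encode the catalytic and the modifier subunit of glutamate-cysteine ligase, the rate-limiting enzyme of glutathione synthesis. *Gclc* (ENSMUSG00000032350, chr9:77754535-77794485, plus strand) had 1945 counts in KO and 3482 in WT, or 180.9 and 214.7 CPM and 42.9 and 77.3 FPKM. *Gclm* (ENSMUSG00000028124, chr3:122245557-122270732, plus strand) had 589 and 1057 counts, or 54.8 and 65.2 CPM and 5.37 and 9.70 FPKM. Both subunits were slightly lower in KO, *Gclc* by a log2 fold change of -0.25 (-0.33 to -0.17) and *Gclm* by -0.25 (-0.40 to -0.10). Their ratio was the same in both libraries within counting error. There were 3.30 counts of *Gclc* for each count of *Gclm* in KO (3.01 to 3.63) and 3.29 in WT (3.07 to 3.53).

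*Txn1*, *Txnrd1* and *Srxn1* belong to the thioredoxin branch, in which thioredoxin reduces protein disulfides, its reductase TXNRD1 restores it with NADPH, and sulfiredoxin rescues over-oxidized peroxiredoxins. *Txn1* (ENSMUSG00000028367, chr4:57943373-57956411, minus strand) had 1638 counts in KO and 2789 in WT, or 152.3 and 172.0 CPM and 117.7 and 201.6 FPKM. Its log2 fold change was -0.18 (-0.26 to -0.09). The enzymes that recycle its system differed more. *Txnrd1* (ENSMUSG00000020250, chr10:82859206-82897724, plus strand) had 555 and 1291 counts, or 51.6 and 79.6 CPM and 12.3 and 28.7 FPKM, and its log2 fold change was -0.63 (-0.77 to -0.48). *Srxn1* (ENSMUSG00000032802, chr2:152105516-152111376, plus strand) had 439 and 1120 counts, or 40.8 and 69.1 CPM and 9.12 and 23.4 FPKM, with a log2 fold change of -0.76 (-0.92 to -0.60). The intervals of *Txnrd1* and *Srxn1* overlapped each other and lay wholly below that of *Txn1*. Of the 6 members with an entry among the promoter windows, 3 held an ARE core. *Txnrd1* and *Srxn1* are among them, along with *Gclm*, whose fold change was smaller. *Nqo1*, the member with the largest fold change, held none, and *Txnrd1* held its match in only some of its windows. A link between these matches and the fold changes was not tested.

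*Hmox1* encodes heme oxygenase 1, which opens the heme ring and releases iron and carbon monoxide. It (ENSMUSG00000005413, chr8:75093591-75100596, plus strand) had 93 counts in KO and 192 in WT, or 8.65 and 11.8 CPM and 2.54 and 5.27 FPKM. The log2 fold change was -0.45 with a wide interval, -0.83 to -0.09. *Hmox1* is also expressed by macrophages that clear red cells, and the 11 macrophage markers summed to 172.6 CPM in KO and 240.7 in WT. Every one of the 11 was below 0, beside 50% of all genes, with a median log2 fold change of -0.48. Intervals lay wholly below 0 for 8, beside 26.2% of all genes, and none was at 0 counts in both libraries. The part of these cells in the *Hmox1* difference was not tested. Of the 5 erythroid markers used, the 4 globin genes were lower in KO, with log2 fold changes of -1.05 to -0.56 and intervals wholly below 0, and *Alas2*, the first enzyme of erythroid heme synthesis, was at 1.22, so that the list summed to 84.7 CPM in KO and 80.4 in WT with a median of -0.59.

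Markers of other liver cells did not all differ the same way after TMM scaling. The stellate cell list had a median of -0.52 and the endothelial list one of -0.44. Intervals lay wholly below 0 for 6 of 7 stellate cell and 3 of 6 endothelial markers, beside 26.2% of all genes. The cholangiocyte list had a median of 0.40 over 5 tested genes, 3 of them with intervals wholly above 0, beside 25.8% of all genes. Those 3 included *Krt19* (26 and 7 counts) and *Krt7* (15 and 6), while *Sox9* was at -0.31 (interval -0.75 to 0.12). The neutrophil list had a median of 0.15 over 3 tested genes, all with intervals that included 0. With total counts the cholangiocyte and neutrophil medians were -0.20 and -0.45, and every marker list had a median below 0. Summed levels were 113.0 CPM in KO and 167.1 in WT for 7 stellate cell markers, 64.9 and 80.05 for 6 endothelial markers, 163.7 and 125.3 for 6 cholangiocyte markers (152.3 and 115.6 of it from *Spp1* alone), and 31.5 and 29.85 for 6 neutrophil markers, of which Ly6g was at 0 in both libraries. The part of these cells in the differences of the 8 genes was not tested.

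**Figure D2:**
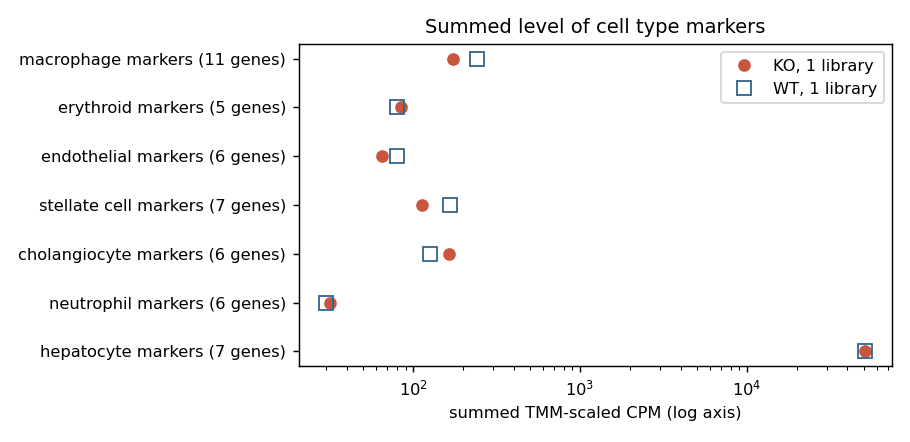
Summed TMM-scaled CPM (log axis) of 7 lists of cell type markers in the KO library (red circles) and the WT library (open blue squares). Macrophage and stellate cell markers are lower in KO, and the hepatocyte markers are at 51290 and 51360.

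*Keap1*, the repressor and redox sensor of NRF2, was the member that differed least. It (ENSMUSG00000003308, chr9:21229730-21239332, minus strand) had 352 counts in KO and 558 in WT, or 32.7 and 34.4 CPM and 3.39 and 5.41 FPKM. The log2 fold change was -0.07, and its interval of -0.27 to 0.12 included 0, so a difference was not detectable at this depth. A gene annotated on the opposite strand, Gm16754, shares 10.3% of the 51-base words of *Keap1* and is listed at 0 counts in both libraries, but the counting is not stated to use strand, so reads of the pair cannot be told apart. The other members shared at most 2.40% of their words with another gene.

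**Figure D3:**
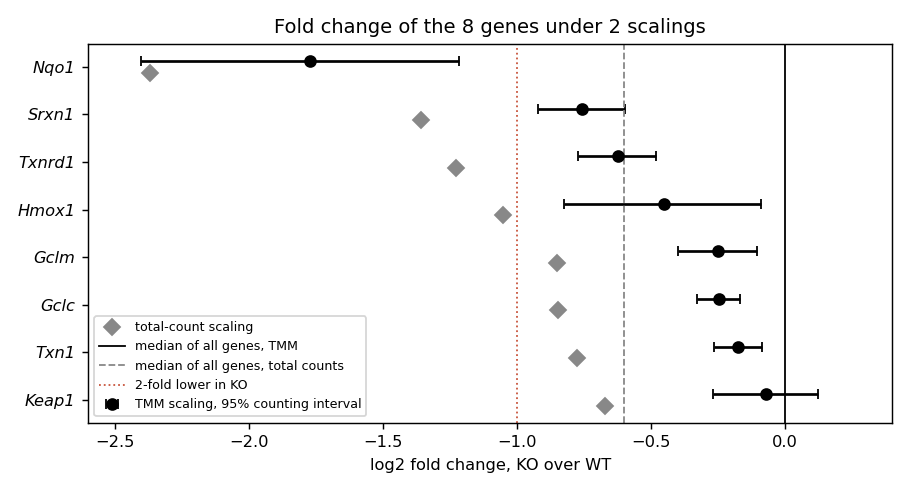
Log2 fold change (KO over WT) of the 8 genes with TMM scaling (black, bars are exact 95% counting intervals) and with total-count scaling (grey), beside the median of all tested genes under each scaling (lines). Nqo1 is past 2-fold under both, and Srxn1, Txnrd1 and Hmox1 pass it with total counts, where the median of all genes is -0.60.

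Because library scaling moves all genes together, the members were also compared with each other inside each library, where no scaling enters. The *Nqo1* count was 1.54% of the *Gclc* count in KO and 4.48% in WT, a log2 difference of -1.54 (-2.16 to -0.96). *Txnrd1* was 28.5% and 37.1% of *Gclc* (-0.38, interval -0.55 to -0.21), and *Srxn1* was 22.6% and 32.2% (-0.51, -0.69 to -0.33). These members were thus lower in KO relative to *Gclc* too, beyond counting error. For *Gclm* (0.00, -0.17 to 0.16), *Hmox1* (-0.21, -0.59 to 0.17), *Keap1* (0.18, -0.04 to 0.39) and *Txn1* (0.07, -0.05 to 0.19) the interval included 0.

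Total-count scaling shifts all genes downward from TMM by nearly the same amount, so genes below 0 stay below 0. All 8 genes were therefore lower in KO under it too. *Nqo1*, *Txnrd1*, *Srxn1* and *Hmox1*, 50% of the members beside 26.6% of all genes, were past 2-fold. The median of the members was -0.95 beside -0.60 over all genes. Relative to that median of all genes, the fold changes repeat those with TMM and are no separate check. They were -1.77 for *Nqo1*, -0.76 for *Srxn1*, -0.63 for *Txnrd1* and -0.45 for *Hmox1*. The other members were at -0.25 (both *Gclm* and *Gclc*), -0.18 (*Txn1*) and -0.07 (*Keap1*). When the mitochondrial genes were left out of the total, the median of all genes was -0.09, that of the members was -0.44, and only *Nqo1* was past 2-fold.

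Levels of different genes were compared as TMM-scaled CPM per kilobase of the longest GENCODE M21 transcript, since the authors' gene length was above the union of exons for 78.3% of tested genes with several transcripts. *Txn1* was the most abundant in both libraries, at 144.9 in KO and 163.7 in WT, followed by *Gclc* at 52.8 and 62.7. *Srxn1* (14.5 and 24.6) and *Txnrd1* (14.2 and 21.98) came next and their intervals overlapped in each library. *Gclm* (9.80 and 11.7) and *Keap1* (9.06 and 9.52) overlapped in KO but not in WT. *Hmox1* (5.51 and 7.55) and *Nqo1* (1.80 and 6.20) were lowest, and overlapped in WT but not in KO. The order of the 8 genes was the same in both libraries.

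Among the genes that control the pathway, the transcript of NRF2 itself was little different. *Nfe2l2* had 659 counts in KO and 1127 in WT, or 61.3 and 69.5 CPM, with a log2 fold change of -0.18 (-0.32 to -0.04). The related factor *Nfe2l1*, which controls proteasome genes, went the other way, with 485 and 293 counts and a log2 fold change of 1.32 (1.11 to 1.53). *Bach1*, a repressor that competes for AREs, and *Mafg*, a small MAF partner, were both at 0.41, and both were at -0.19 with total counts. *Mafk* was at -0.75, and *Maff*, with 16 and 12 counts, was at 0.97 with an interval of -0.16 to 2.22. *Cul3* was at -0.46 and *Sqstm1*, which encodes the autophagy receptor p62 that binds KEAP1, at -0.28. Of the 12 tested genes of this list, *Keap1* included, 4 had intervals wholly below 0, 4 wholly above, 1 was 2-fold higher and none 2-fold lower, beside 26.2%, 25.8%, 9.46% and 9.94% of all genes. With total counts none was 2-fold higher, *Nfe2l1* being at 0.72, and *Cul3* (-1.06) and *Mafk* (-1.35) were 2-fold lower.

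Beyond the 8 members, 75 other genes of the 9 antioxidant lists were looked at, of which 73 were tested. Of these 10 (13.7%) were 2-fold lower in KO and 4 (5.48%) 2-fold higher, beside 9.94% and 9.46% of all genes. The interval was wholly below 0 for 40 (54.8%) and wholly above 0 for 14 (19.2%), beside 26.2% and 25.8%. Well-counted genes have narrow intervals, and a share of all genes matched to the level of these genes was not computed. Their median log2 fold change was -0.28, and with total counts it was -0.88, with 29 genes 2-fold lower and 2 higher.

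Detoxification and conjugation genes held most of the larger differences. The quinone, aldehyde and epoxide list had 10 tested genes with *Nqo1* among them, and a median of -0.57. In each direction 2 genes were past 2-fold, beside 9.94% of all genes lower and 9.46% higher. *Ptgr1*, which reduces reactive aldehydes and leukotriene B4, had 114 counts in KO and 598 in WT (-1.80, interval -2.10 to -1.51), close to *Nqo1*. *Ephx1*, microsomal epoxide hydrolase, was at -0.72 and *Ugdh*, which makes UDP-glucuronate, at -0.58. *Osgin1*, an oxidative stress-induced growth inhibitor and also a known NRF2 target, had 3387 counts in KO and 199 in WT, a log2 fold change of 4.68 (4.47 to 4.90) against the direction of the members. *Cbr3* was higher too, but on 14 and 7 counts (1.51, 0.19 to 3.14). *Aox1* was at 0.03 and at -0.57 with total counts.

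The glutathione transferases had a median of -0.60 over 11 tested genes. Of these 5 were 2-fold lower and none higher, beside 9.94% and 9.46% of all genes. *Gstm3* had 1084 counts in KO and 10258 in WT, a log2 fold change of -2.65, whereas its neighbour in the family *Gstm1* had 6136 and 10325 counts and was at -0.16. *Gstm3* shares 28.4% of its words with Gstm2-ps1, and the pair summed to 1255 and 10928 counts. *Gsta1* (-1.69) and *Gsta2* (-1.65) share much of their sequence with each other and with Gm10639, and summed with it they had 474 and 2247 counts. *Gsta4* (257 and 1269 counts, -1.71) shares none, and *Gstm2* was at -1.21. The abundant *Gstp1* was at -0.16, and *Mgst1* was at 0.29 but at -0.31 with total counts.

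In glutathione synthesis and recycling the median over 10 tested genes, *Gclc* and *Gclm* included, was -0.23. *Gss*, glutathione synthetase, which acts after glutamate-cysteine ligase, had 839 counts in KO and 2032 in WT and was at -0.68, lower than either ligase subunit. *Oplah* was at 0.28 and at -0.32 with total counts. *Slc7a11*, the cystine importer, had 14 counts in KO and 1 in WT, a ratio of 21.1 in scaled CPM with a counting interval of 1.68 to 9.80 on the log2 scale. The thioredoxin and peroxiredoxin list had a median of -0.20 over 15 tested genes. Of these 9 had intervals wholly below 0, beside 26.2% of all genes, and none was past 2-fold. Its most counted genes were the peroxiredoxins *Prdx1* at -0.81, *Prdx6* at -0.41 and *Prdx5* at -0.20, and *Txn1*. *Prdx1* was thus near *Srxn1*, but the peroxiredoxins of the list ranged from -0.81 to -0.20.

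The NADPH list, which feeds both branches, had a median of -0.43 over 6 tested genes. Of these 4 had intervals wholly below 0, beside 26.2% of all genes, and none was past 2-fold. *Pgd* was at -0.85, *Tkt* at -0.49 and *Taldo1* at -0.36, all of the pentose phosphate pathway, while *Idh1* was at 0.16 and at -0.44 with total counts. Of the 4 efflux pumps *Abcc3* had 445 counts in KO and 1391 in WT (-1.05), *Abcc4* had 2 and 22 counts, a WT to KO ratio of 7.30 with a counting interval of -6.00 to -0.84 on the log2 scale of KO over WT, and *Abcc2* was at -0.01. In heme breakdown and iron storage *Ftl1*, ferritin light chain, was at -1.24, beyond the interval of *Hmox1*, and *Fth1*, ferritin heavy chain, was at -0.60, within it. *Ftl1* shares 90.4% of its words with Gm10116 and Ftl2-ps, and the 3 genes summed to 16828 counts in KO and 56720 in WT. Among the peroxide and superoxide enzymes, all 7 were below 0, beside 50% of all genes, with a median of -0.33. They ran from *Gpx1* (4985 and 16932 counts, -1.17) to catalase, *Cat* (-0.09), with *Sod1* at -0.33 and *Sod2* at -0.18.

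**Figure D4:**
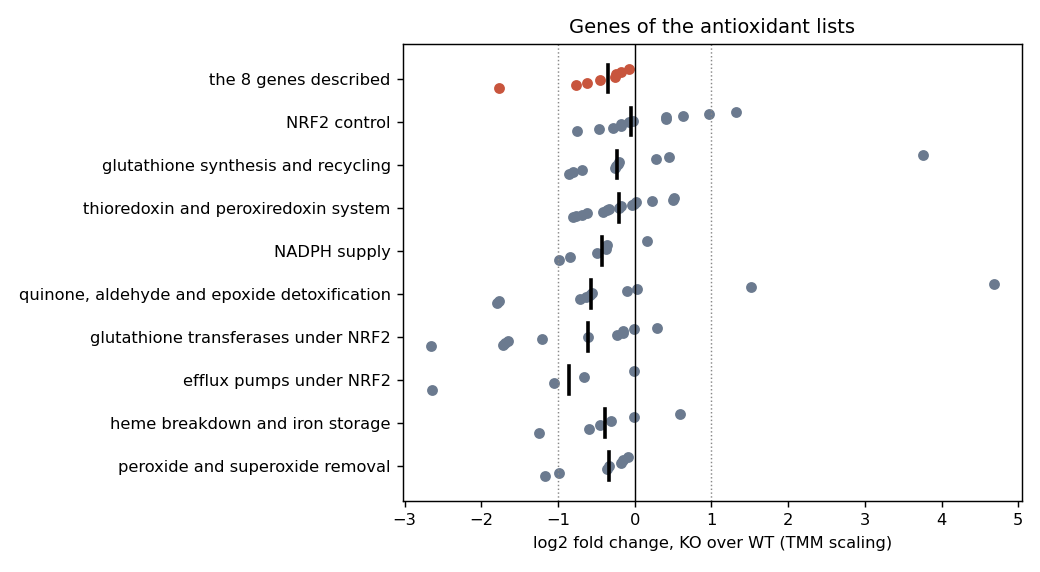
Log2 fold change (KO over WT, TMM scaling) of each tested gene of the 8 members (red) and of the 9 other antioxidant lists (grey), some of which hold members too, with the median of each list as a black bar and dotted lines at 2-fold. The medians lie between -0.85 for the efflux pumps and -0.04 for NRF2 control, and the point at 4.68 is Osgin1.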

How the data were processed

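Liver RNA of 1 KO and 1 WT library was sequenced on Illumina HiSeq instruments. The authors deposited raw read counts per gene and the FPKM they computed from them, which still carry the total-count scaling. The labels name HISAT2 2.0.4, StringTie and edgeR, without their roles, and build hg38, although the identifiers and coordinates are those of mouse GRCm38. Whether counting used strand is not given in the sources used here.

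Genes past a minimum of 10 counts, summed over KO and WT, were scaled by TMM (edgeR 4.0.16, R 4.3.3), and log2 fold changes were taken with a prior count of 0.5. Exact Clopper-Pearson intervals cover counting error only, and reads of PCR products are not independent molecules. Calls were at 2-fold, with no test, since each genotype has 1 library. Within-library ratios used exact conditional odds ratios (scipy 1.17.1). The fold changes and intervals were checked on simulated counts drawn with counting error only and with the same mitochondrial share in both libraries. That check says nothing of the spread between animals, nor of how well TMM handles the difference in mitochondrial share. Shared sequence is the percentage of 51-base words of the longest transcript (GENCODE M21) found in other genes. The genes named are the 8 members, the control genes of NRF2 and, of each list, genes past 2-fold and up to 4 of the most counted. Members and lists were chosen with earlier results of these data known. The alternatives were 4 other scalings, the FPKM (pseudocount 0.1), a larger prior count (5), minimums of 1 and 50 counts and 3 other call rules. A cell type marker of the design is not reported here.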

Additional observations from a re-analysis of the deposited data

How the results depend on the processing

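All 8 members stayed below 0 under each alternative scaling, prior count and minimum that was run, and none was 2-fold higher. A scaling shifts all genes by nearly the same amount, and the highest median of all genes was 0.007, with the upper quartile. The sign of the members under the other scalings was therefore fixed by the TMM values. *Nqo1* ranged from -2.37 to -1.66 on the log2 scale and *Keap1* from -0.67 to -0.07. Total counts put 4 members past 2-fold (median -0.95), with 3605 genes lower and 624 higher, and the authors' FPKM, which carry the same scaling, also put 4 (median -0.94), with 2934 lower and 405 higher. A call at 1.5-fold gave 3 members lower, with 2625 genes lower and 2534 higher. A minimum of 1 count gave 2752 lower and 2289 higher, a minimum of 50 counts 766 and 642, and the edgeR exact test with an assumed coefficient of variation of 0.2 gave 444 and 488, each with *Nqo1* as the only member. That coefficient was assumed, not measured, so the last counts say nothing of the spread between animals. These minimums changed the genes tested, not the TMM factors. DESeq2 size factors, the upper quartile, totals without the mitochondrial genes, a prior count of 5 and the exact binomial test changed no such count by over 1.5 times. Of 642 values of single genes under the alternatives, 482 lay within the counting interval and none past 2-fold turned its sign. No paired analysis was possible because a genotype is 1 library here, and for the same reason no replicate could be left out.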

Other observations

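Lists taken from the annotation columns of the deposited table were added after the data were seen and hold several of the 8 members. Of the 43 tested genes annotated to glutathione metabolism in KEGG, 30 had intervals wholly below 0 and 3 wholly above, 9 were 2-fold lower in KO and none 2-fold higher, and the median log2 fold change was -0.41. Of the 49 tested genes annotated to antioxidant activity in GO, 27 had intervals wholly below 0 and 9 wholly above, 6 were 2-fold lower and 1 was 2-fold higher, and the median was -0.26. Over all tested genes 26.2% had intervals wholly below 0, 25.8% wholly above, 9.94% were 2-fold lower and 9.46% 2-fold higher. These shares were not matched to the level of the genes in the lists.

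Gene length moved with the fold change across all genes. The median was -0.12 in the 2704 tested genes with the shortest transcripts, those of at most 1824 bases, and 0.09 in the 2704 with the longest, of at least 5111 bases. Over the 10412 genes within the members' range of length it was -0.01. *Txn1* (1051 bases), *Nqo1* (1553) and *Hmox1* (1569) were among the shortest, where 32.5% of genes had intervals wholly below 0, and *Gclm* (5589) was among the longest. The part of length in the members' differences was not tested. The promoter windows of *Nfe2l2* and *Osgin1* held 1 match each, an ARE core 240 bases before the start and an AP-1 site 97 bases before it. Neither gene held the miR-182-5p seed match in its longest 3′ UTR.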
